A study of Homo sapiens with 2 samples.

Results

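This account covers 48 human genes of the Wnt pathway in QGP1 cells, an established line from a pancreatic neuroendocrine tumour (pNET). A gene was included where a probe set carried its symbol alone in GEO's annotation of the platform and the symbol belonged to the WNT ligands, the Frizzled receptors (FZD), the co-receptors LRP5 and LRP6, the DKK and SFRP inhibitors, AXIN1, AXIN2, NKD1, NKD2, the TCF7 and LEF1 transcription factors, the LGR receptors or the ligases RNF43 and ZNRF3. TCF7, WNT3, WNT3A and FZD8 had no such probe set and were not measured. The 48 genes were measured by 102 of 54613 compared probe sets, out of 19775 genes in all, and each gene was represented by its brightest probe set, judged on the mean of both arrays (the main probe set). RNA of QGP1 cells sorted by FACS for high aldehyde dehydrogenase activity (ALDH high), which is often taken as a mark of cancer stem-like cells, was hybridised to 1 array, and RNA of control QGP1 cells to 1 array. No treatment, genotype or time is given for either group, all material comes from 1 cell line, and nothing in the sources used here says whether the control cells were sorted too. With 1 array per group no difference could be checked against replicates or tested, and the values describe these arrays.

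Wnt proteins are secreted, lipid-modified ligands that bind Frizzled receptors on the cell surface. In the canonical branch, a ligand bound to a Frizzled and to LRP5 or LRP6 inactivates the complex of AXIN, APC and GSK3 that marks β-catenin for destruction, and β-catenin then enters the nucleus and activates genes together with TCF and LEF factors. Several targets, among them AXIN2, NKD1, RNF43, ZNRF3 and DKK1, in turn restrain the pathway, and other ligands, WNT5A foremost, mainly act through receptors such as ROR1 without β-catenin.

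Markers of the labelled cell type were above the median level on both arrays, though not all were bright. Of 6 neuroendocrine markers measured, CHGA had a level of 11.50 in ALDH high and 11.70 in control cells. SYP was the dimmest of the 6, at 6.48 on both arrays. The differences of the 6 lay between -0.20 and 0.34. The 5 epithelial markers included EPCAM at 13.39 in ALDH high and 13.51 in control cells, and their differences lay between -0.23 for CDH1 and 0.60 for KRT19, a keratin at 10.17 in ALDH high and 9.58 in control cells whose other probe set differed by -0.08. Fibroblast markers differed by -0.28 to 0.31 and endothelial markers by -0.21 to -0.07, and 3 of these 11 reached the median level. Of 4 leukocyte markers, LYZ (4.34 in ALDH high, 5.67 in control) and CD14 (4.30 in ALDH high, 5.32 in control) were over 2-fold lower below the median level of the arrays. CD3E had 5.65 in ALDH high and 5.83 in control cells. PTPRC was dim at 3.56 in ALDH high and 3.34 in control cells, and its 5 probe sets differed by -0.12 to 0.72. The part of these markers in the results below was not tested. All levels are log2 values made with RMA, the median over all probe sets of both arrays was 5.68, and the table held no detection calls, so that a level below that median can be background.

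As a group the Wnt genes did not move in one direction. Their median difference, ALDH high minus control, was 0.00 on the log2 scale, against -0.01 over all genes, with 22 of the 48 above 0, 24 below 0 and 2 exactly equal. All 19775 genes had 9012 above 0, 9950 below and 813 exactly equal. Exact equality is thus not particular to Wnt genes. Of the 102 Wnt probe sets, 33 had a difference whose size recurred many times among the compared probe sets. That share was not computed over all probe sets, so the count shows nothing particular to Wnt genes. Exact equality is no precise measure of an unchanged level. WNT5A alone was over 2-fold higher on its main probe set, and no member was over 2-fold lower. Over all genes 0.465% passed this size upwards and 1.23% downwards, so that 1 and 0 of 48 are counts near the background. Beyond 1.5-fold were 5 higher members (WNT5A, LEF1, FZD1, WNT9A and LGR5) and 1 lower member (DKK3). All genes passed that size in 2.61% of cases upwards and 4.21% downwards, and no test was made of the difference between these shares. Probe sets of the same gene, taken over the 10523 genes that have several, scattered in their differences with an SD of 0.23 (pooled), which covers neither the spread between cultures nor that between sorts.

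**Figure D1:**
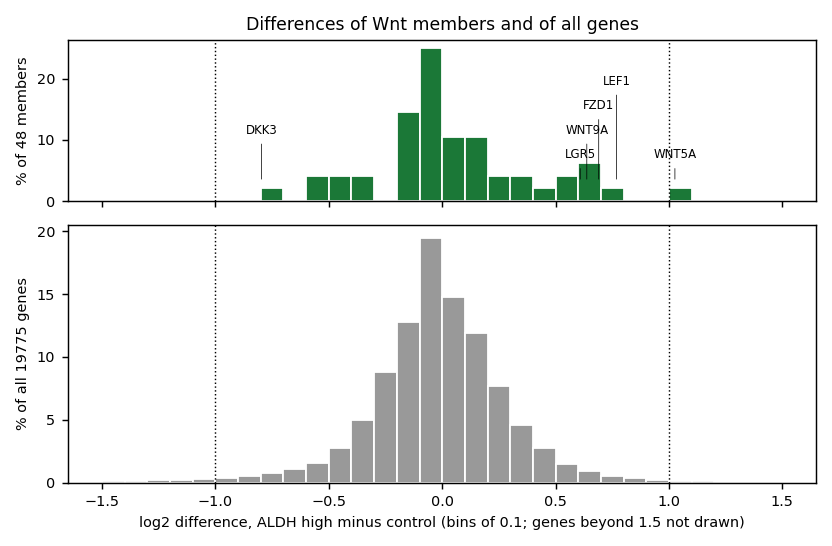
Distribution of the log2 difference, ALDH high minus control, as a percentage of the 48 Wnt genes (top) and of all 19775 genes (bottom), 1 main probe set per gene. Dotted lines mark 2-fold. The medians are 0.00 for the Wnt genes and -0.01 for all genes, and WNT5A is the only Wnt gene past a dotted line.

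WNT5A was the ligand with the clearest difference. This ligand of the β-catenin-independent branch had a level of 9.38 in ALDH high and 8.35 in control cells on its main probe set (205990_s_at), a 2.04-fold higher level. Its second probe set, 213425_at, stood at 8.93 in ALDH high and 7.87 in control cells, a difference of 1.06. Both probe sets were far above the median level on both arrays, and the one that is not open to cross-hybridisation differed as much as the other. The main difference of 1.03 lies close to the 2-fold line, and it was 0.96 with a pseudocount of 32 and 0.996 with lowess centring, which ends the call. In RNA of a whole population, more cells that express WNT5A and more of its RNA per cell cannot be told apart, and the same holds for every gene below.

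WNT9A, a ligand assigned to the canonical branch, was 1.56-fold higher, at 7.31 in ALDH high and 6.67 in control cells. Its other probe set was dim and level, at 4.64 in ALDH high and 4.66 in control cells. The mean over both was therefore 0.31. WNT6, a ligand also measured above the median level, stood at 7.09 in ALDH high and 7.01 in control cells. WNT10B, measured at 6.75 on both arrays, differed by 0.00, and WNT7B, at 6.47 in ALDH high and 6.59 in control cells, by -0.11. The sixth ligand above the median level, WNT16, had 6.19 in ALDH high and 6.05 in control cells, while its other probe set differed by -0.36 at 3.01 in ALDH high and 3.37 in control cells.

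The remaining 11 of 17 ligands were below the median level on both arrays and could show little. Their differences ran from -0.19 for WNT11 to 0.28 for WNT1. WNT8B was exactly equal on both arrays, at 5.05. WNT5B, the closest relative of WNT5A, had a main level of 4.45 in ALDH high and 4.51 in control cells, and its 3 probe sets differed by -0.15 to -0.05. The ligands had a median of 0.03.

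**Figure D2:**
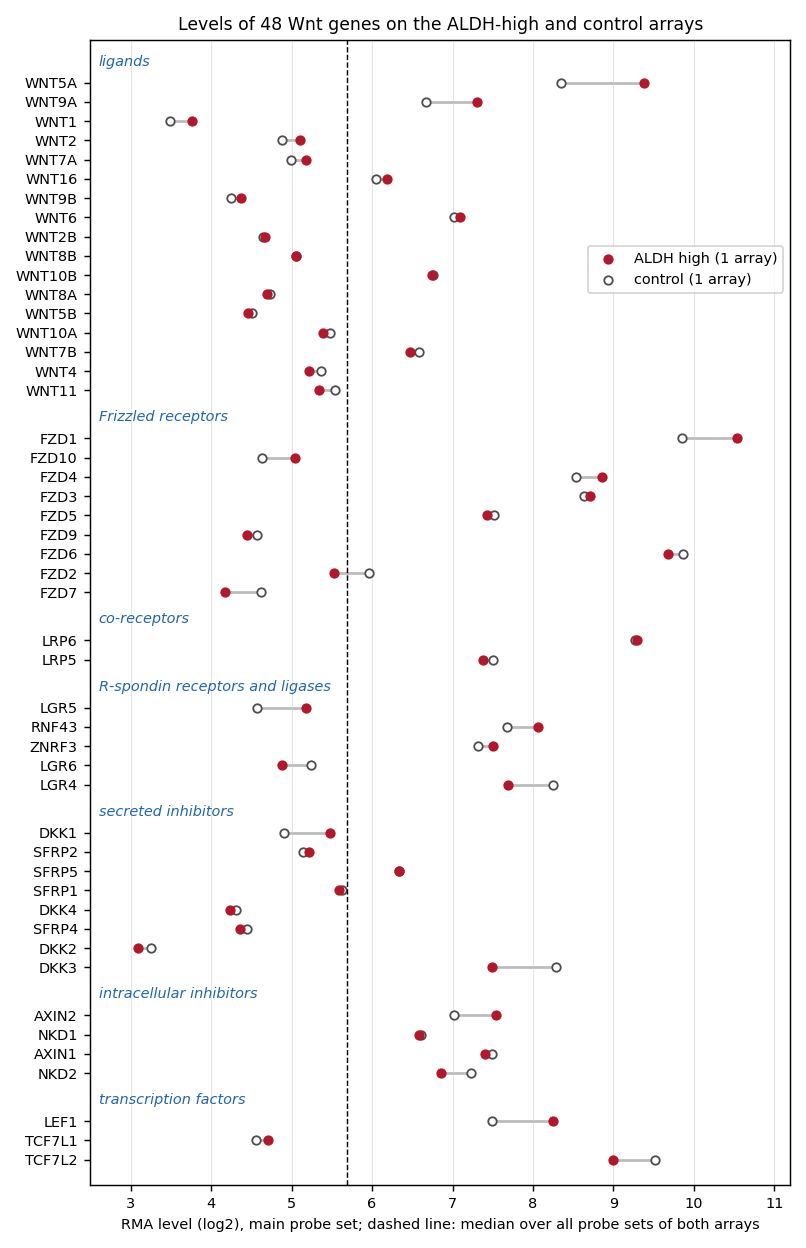
RMA level (log2) of the main probe set of each of the 48 Wnt genes, grouped by role and ordered within a role by difference. Filled points are ALDH high and open points control cells, 1 array each, and the dashed line is the median level of 5.68. WNT5A, FZD1, LEF1 and WNT9A are further right in ALDH high, DKK3 is further left, and 23 of the 48 genes lie below the dashed line on both arrays.

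The Frizzled receptors diverged among themselves. FZD1, a receptor used in canonical signalling, was higher in ALDH high on each of 3 probe sets. The main one stood at 10.54 in ALDH high and 9.85 in control cells (1.61-fold higher), a second at 7.53 in ALDH high and 6.91 in control cells, and 236035_at at 7.60 in ALDH high and 6.36 in control cells. The last of these was 2.37-fold higher, so the size of the FZD1 difference depended on the probe set while its direction did not.

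FZD2 and FZD7, a pair of Frizzled receptors from the same subfamily as FZD1, were lower. FZD2 had 5.53 in ALDH high and 5.97 in control cells on its main probe set, and 5.23 in ALDH high and 6.23 in control cells on the other, a difference of -0.997. FZD7 had 4.18 in ALDH high and 4.62 in control cells on the main probe set and differed by -0.86 on the other (3.53 in ALDH high, 4.39 in control). These levels lay around or below the array median, and the FZD7 difference shrank to -0.18 with a pseudocount. FZD4, the receptor of norrin, was 1.25-fold higher, at 8.86 in ALDH high and 8.54 in control cells. FZD6, a receptor of the planar polarity branch, had 9.68 in ALDH high and 9.86 in control cells. FZD3, with 4 probe sets between -0.14 and 0.07, and FZD5, with both near -0.09, were level.

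The dim FZD10 differed by 0.40 and FZD9 by -0.12. The median of the 9 Frizzled genes was -0.09. Of the 6 with several probe sets, 5 had all of them on the same side of 0, beside 4955 of 10523 such genes over the array.

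The co-receptors differed little. LRP6 stood at 9.29 in ALDH high and 9.27 in control cells, with its 3 probe sets from 0.03 to 0.15. LRP5 had 7.37 in ALDH high and 7.50 in control cells, and its 2 probe sets differed by -0.13 and -0.09. All of these are within the spread of 0.23 between probe sets of 1 gene.

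LGR4, LGR5 and LGR6 are receptors for R-spondins, which raise Frizzled levels by drawing off the ligases RNF43 and ZNRF3. LGR5, a stem cell marker of the intestine and a β-catenin target, was higher on both probe sets. It had 5.18 in ALDH high and 4.57 in control cells on the main probe set (1.52-fold higher), and 4.60 in ALDH high and 3.16 in control cells on 213880_at (2.73-fold higher). Each of these levels was below the array median, so the folds rest on levels that can be background, and with a pseudocount the main difference was 0.29. LGR4 pointed the other way, at 7.69 in ALDH high and 8.25 in control cells (1.48-fold lower), but its other probe sets, both dimmer, differed by -0.03 and -0.17. LGR6, also dim, differed by -0.36.

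Both ligases that remove Frizzled receptors from the surface were slightly higher. RNF43 had 8.06 in ALDH high and 7.68 in control cells (1.31-fold higher), and ZNRF3 had 7.50 in ALDH high and 7.32 in control cells (1.13-fold higher). Each was measured by 1 probe set, and the ZNRF3 difference of 0.18 was below the spread between probe sets.

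DKK3 showed the largest lower value among the main probe sets of the 48 genes. It encodes a secreted protein of the Dickkopf family that, unlike its relatives, is not a clear inhibitor of LRP5 and LRP6. Its main probe set stood at 7.49 in ALDH high and 8.28 in control cells (1.74-fold lower). The next in level, 230508_at, had 5.92 in ALDH high and 6.51 in control cells, and 202196_s_at had 5.53 in ALDH high and 6.35 in control cells, a difference of -0.83. The other 3 DKK3 probe sets were dim, with levels of at most 3.40 and differences from -0.19 to 0.16. The brighter probe sets thus all pointed to a lower level in ALDH high, and the dim ones could show little.

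DKK1, an inhibitor of LRP5 and LRP6 and itself a β-catenin target, was 1.48-fold higher, at 5.48 in ALDH high and 4.91 in control cells on 1 probe set below the median level. With a pseudocount its difference was 0.30. DKK2 (-0.17) and DKK4 (-0.08) were dim on both arrays. The SFRP genes encode decoys that bind Wnt ligands. SFRP5 was exactly equal on both arrays, at 6.33, and the differences of SFRP1, SFRP2 and SFRP4 lay between -0.09 and 0.07 at levels below the median. The 8 secreted inhibitors had a median of -0.06.

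AXIN2, the scaffold of the destruction complex that is a widely used readout of β-catenin activity, was split between its probe sets. On 222696_at it had 7.54 in ALDH high and 7.02 in control cells, a 1.44-fold higher level. Its other 3 probe sets, dimmer and all open to cross-hybridisation, differed by -0.21 to -0.10. The mean over the 4 was 0.02 and the median was -0.11, so the direction depends on which probe set is used. AXIN1, the constitutive scaffold, had 7.41 in ALDH high and 7.49 in control cells. NKD1, which restrains Dishevelled, had 6.58 in ALDH high and 6.61 in control cells on its main probe set. Its other 2 probe sets, both below the median level, differed by 0.14 and 0.29, and the mean over the 3 was 0.14. NKD2, its relative, had 6.85 in ALDH high and 7.24 in control cells (1.30-fold lower).

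The transcription factors that β-catenin binds differed in opposite directions. LEF1, mostly an activator, had 8.25 in ALDH high and 7.49 in control cells (1.70-fold higher) on 221558_s_at, a probe set open to cross-hybridisation. Its other 2 probe sets were below the median level and differed by -0.15 and 0.13, so that the mean over all 3 was 0.25. TCF7L2, the main factor of this family in gut epithelium, had 8.99 in ALDH high and 9.51 in control cells (1.43-fold lower). Of its 7 probe sets, the 5 brightest differed by -0.52 to -0.33, and the remaining 2, both dim, by -0.18 and 0.09. TCF7L1, mostly a repressor, was dim, at 4.70 in ALDH high and 4.55 in control cells.

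**Figure D3:**
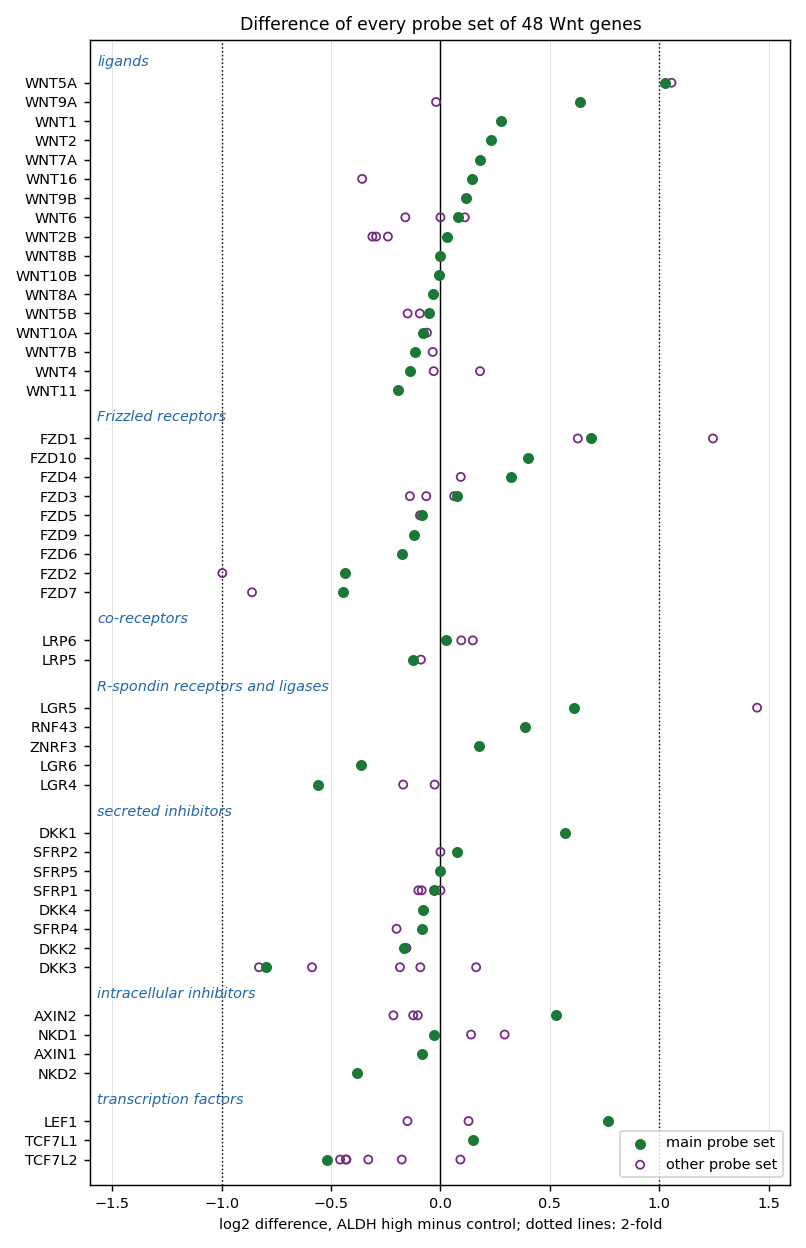
Log2 difference, ALDH high minus control, of all 102 probe sets of the 48 Wnt genes. Filled points are the main probe set and open points the others, and dotted lines mark 2-fold. Both WNT5A probe sets and 1 each of FZD1 and LGR5 are past the line on the right, none is past it on the left, and AXIN2 and LEF1 have probe sets on both sides of 0.

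Of the 102 probe sets, 4 passed 2-fold upwards and 0 downwards, where the compared probe sets of the array passed these limits in 0.403% and 0.842% of cases. These 4 were the 2 of WNT5A, 1 of FZD1 and 1 of LGR5, and probe sets of 1 gene are not independent. Of the 102, 37 were above 0, 60 below 0 and 5 equal, and the values past 2-fold were all higher. This split counts genes with many probe sets repeatedly, such as TCF7L2 with 7, and was not computed over all probe sets of the array. By gene, 22 members were above 0 and 24 below. Among 28 members with several probe sets, all pointed the same way in 15, beside 4955 of the 10523 genes of the array with several.

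The stretches of promoter that hold the core letters of a TCF or LEF site are shown for 3 genes. These are among the genes that were higher in ALDH high and held these letters. Whether the β-catenin branch acts through the letters here was not tested. The stretches are the 250 bases before the RefSeq start of each gene (build GRCh38.p14), 5′ to 3′ on the strand of the gene. CTTTG or its reverse complement CAAAG is in capitals. The FZD1 stretch is chr7:91264183-91264432 on the plus strand, that of LEF1 is chr4:108166302-108166551 on the minus strand, and that of DKK1 is chr10:52314031-52314280 on the plus strand.
FZD1: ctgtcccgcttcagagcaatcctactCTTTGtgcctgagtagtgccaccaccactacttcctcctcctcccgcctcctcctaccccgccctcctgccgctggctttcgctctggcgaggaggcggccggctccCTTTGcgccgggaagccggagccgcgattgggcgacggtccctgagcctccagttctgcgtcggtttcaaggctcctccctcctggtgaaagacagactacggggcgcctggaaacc
LEF1: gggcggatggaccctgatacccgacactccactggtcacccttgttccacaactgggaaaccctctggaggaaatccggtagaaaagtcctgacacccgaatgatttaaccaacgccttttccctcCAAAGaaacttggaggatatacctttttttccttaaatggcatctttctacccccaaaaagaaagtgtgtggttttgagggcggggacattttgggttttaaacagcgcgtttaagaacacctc
DKK1: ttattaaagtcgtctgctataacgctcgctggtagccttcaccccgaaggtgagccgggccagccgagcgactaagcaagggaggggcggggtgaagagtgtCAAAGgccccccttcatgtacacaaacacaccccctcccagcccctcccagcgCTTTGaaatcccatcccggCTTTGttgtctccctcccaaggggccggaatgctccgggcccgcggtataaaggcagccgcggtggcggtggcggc

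The letters were not particular to these genes. Promoters were found in the RefSeq table for 31 of the 48 members, with 39 windows in all. Of these windows 9 (23.1%), from 7 genes, held CTTTG or CAAAG, against 42.1% of all 35116 promoter windows. The other 4 genes were LGR6 and TCF7L2, both lower in ALDH high, RNF43, which was higher, and WNT8B, which was equal. The TCF7L2 windows held 1, 3 and 0 copies of the core, and the DKK1 window held 3. No window was found for LGR5 or AXIN2. The longer forms CTTTGAA and CTTTGAT, searched on both strands, were in 5.94% of all windows and in 1 member, DKK1, where CTTTGAA overlaps one of the cores in capitals. Neither of the 2 WNT5A windows and not the WNT9A window held the core. A match is a description of the letters and not a site of binding.

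Of 54 measured genes from a list of 55 other Wnt pathway components, 1 passed 2-fold upwards and 2 downwards, beside 0.465% and 1.23% of all genes. The list had a median of -0.10, against -0.01 over all genes, with 18 above 0 and 36 below, where all genes had 9012 above and 9950 below. WIF1, a secreted protein that binds Wnt ligands and keeps them from their receptors, had the largest difference, at 9.22 in ALDH high and 11.40 in control cells (4.52-fold lower). It rests on 1 probe set, 204712_at, which was bright on both arrays and is not of the kind open to cross-hybridisation. KREMEN1, a co-receptor of DKK proteins, was 2.13-fold lower on its main probe set (5.23 in ALDH high, 6.32 in control), but its other 4 probe sets differed by -0.43 to 0.00, and with a pseudocount the main difference was -0.69. APCDD1, a membrane-bound inhibitor that is itself a β-catenin target, was 2.64-fold higher, at 6.92 in ALDH high and 5.52 in control cells, with a dim second probe set at 0.12. With a pseudocount APCDD1 was no longer over 2-fold, at 0.98. These 3 belong to the extracellular inhibitors, of which 9 were measured, and they did not share a direction.

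ROR1, a receptor for WNT5A, was lower on each of 3 probe sets. The main one had 8.65 in ALDH high and 9.61 in control cells (1.95-fold lower), and the others differed by -0.72 and -0.45. The WNT5A ligand and this receptor therefore differed in opposite directions. PTK7, a Wnt co-receptor of the planar polarity branch, had 8.47 in ALDH high and 8.86 in control cells, and RYK, another Wnt receptor, had 9.31 in ALDH high and 9.20 in control cells.

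The secretion factor WLS, which carries Wnt proteins to the surface, had 9.28 in ALDH high and 9.55 in control cells, and NOTUM, which removes their lipid, had 6.62 in ALDH high and 6.72 in control cells. The 4 R-spondin genes were below the median level, with RSPO3 differing by -0.51 (3.14 in ALDH high, 3.65 in control, -0.13 with a pseudocount) and RSPO1 by -0.20. Planar polarity genes differed in both directions. CELSR1, an atypical cadherin, was 1.52-fold higher (5.75 in ALDH high, 5.15 in control; 0.27 averaged over 3 probe sets), and VANGL2, a membrane protein of the same branch, was 1.49-fold lower (7.99 in ALDH high, 8.57 in control).

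The core of the canonical branch showed no large difference on the main probe sets. Of 16 components of the destruction complex and of signal transduction, 0 were over 1.5-fold different, a count near the background of 2.61% upwards and 4.21% downwards. Their differences on the main probe sets ran from -0.44 to 0.25. Of the 16, 3 were above 0 and 13 below, where all genes had 9012 above and 9950 below. CTNNB1, which encodes β-catenin, had 11.41 in ALDH high and 11.22 in control cells, and APC had 9.64 in ALDH high and 9.39 in control cells. The 5 APC probe sets differed by -0.40 to 0.67, and 215310_at was 1.59-fold higher, at 6.30 in ALDH high and 5.63 in control cells. APC2, its relative, had 6.26 in ALDH high and 6.70 in control cells, and the kinase gene CSNK1E had 8.15 in ALDH high and 8.40 in control cells. Among 11 nuclear partners, the corepressor TLE4 was 1.70-fold higher (6.92 in ALDH high, 6.15 in control) and its relative TLE2 was 1.62-fold lower (8.30 in ALDH high, 8.99 in control). The mean over the 5 TLE4 probe sets was 0.30, and both TLE2 probe sets were lower.

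**Figure D4:**
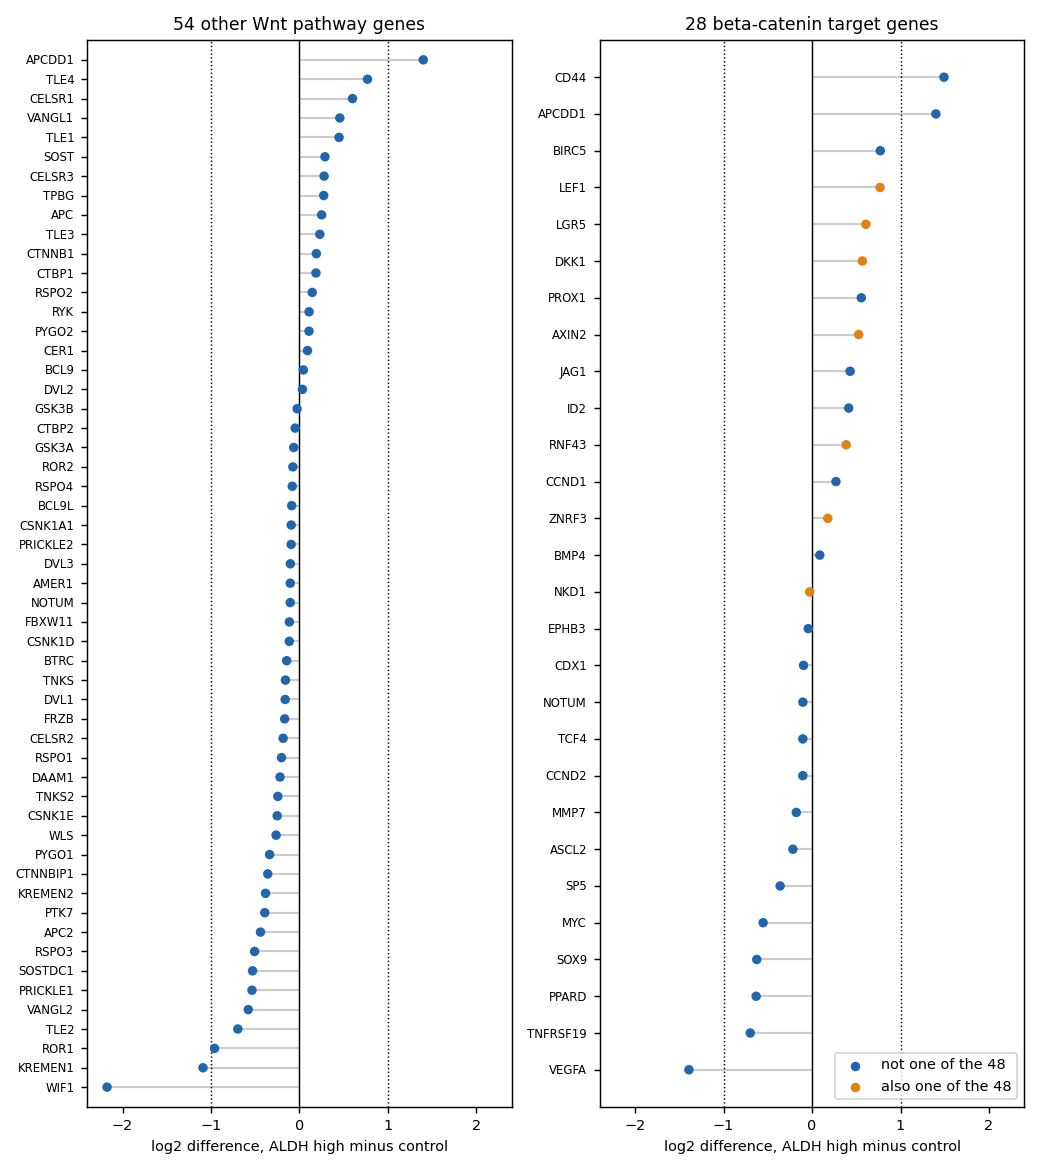
Log2 difference, ALDH high minus control, of the main probe set of 54 other Wnt pathway genes (left) and of 28 β-catenin target genes (right), sorted by difference. Dotted lines mark 2-fold and orange points are targets that also belong to the 48 Wnt genes. WIF1 lies furthest left at -2.17, and CD44 and APCDD1 lie past the line on the right.

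Commonly cited targets of β-catenin did not move together. Of 30 listed targets 28 were measured, all but TCF7 and EPHB2. Among the 28, 14 were above 0 and 14 below, with a median of 0.03. A total of 2 passed 2-fold upwards and 1 downwards, beside 0.465% and 1.23% of all genes. The higher ones were APCDD1 and CD44, the hyaluronan receptor (7.25 in ALDH high, 5.76 in control), and the lower one was VEGFA, an angiogenic factor that also responds to hypoxia (9.49 in ALDH high, 10.88 in control). As the mean of its 13 probe sets, 12 of which were above 0, CD44 differed by 0.65. The 7 targets that are also among the 48 genes have been described above. Of the 21 targets that are not among the 48 genes, 8 were above 0 and 13 below, where all genes had 9012 above and 9950 below. BIRC5, the inhibitor of apoptosis survivin, was 1.71-fold higher (11.22 in ALDH high, 10.44 in control), and its 4 probe sets differed by 0.70 to 1.18. PROX1, a homeobox factor, and JAG1, a Notch ligand, were higher on all 4 and all 6 of their probe sets, by 0.56 and 0.43 on the main ones. MYC, a driver of growth, had 10.87 in ALDH high and 11.42 in control cells, and SOX9, a progenitor factor of the pancreas, had 9.08 in ALDH high and 9.71 in control cells. TNFRSF19 was 1.62-fold lower (8.92 in ALDH high, 9.62 in control), with its probe sets from -0.70 to 0.11. PPARD was 1.55-fold lower (5.89 in ALDH high, 6.53 in control). CCND2, below the median level on each probe set, differed by -0.10 on the main one and was 2.89-fold lower on 200953_s_at (3.76 in ALDH high, 5.29 in control). CCND1, the cyclin that starts the cell cycle, had 10.00 in ALDH high and 9.73 in control cells.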

How the data were processed

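Expression was measured on 2 Affymetrix arrays, 1 of ALDH-high and 1 of control QGP1 cells. The authors deposited log2 levels per probe set, which the submitters' processing notes credit to RMA, a method that corrects background, quantile-normalises arrays and summarises probes by median polish. Its version is not given in these sources. Per the labels' protocols, RNA integrity numbers were above 7. Symbols came from GEO's platform annotation; 1 symbol was listed for 41091 probe sets, several for 1801 and none for 11777, and RefSeq's GRCh38.p14 table changed 0 of the single symbols. Probe sets ending in _s_at or _x_at (45 of the 102) can bind several transcripts.

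The array medians were 5.68 (ALDH high) and 5.69 (control). Poly-A spike-in controls differed by 0.32 (SD 0.07, n = 24 probe sets) and hybridisation controls by 0.05 (SD 0.04, n = 18 probe sets). The poly-A difference is larger than the SD of 0.23 between probe sets of a gene. It is about the size of the FZD4 difference of 0.32. Its part in the differences above was not tested. The number of arrays limits the precision.

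Levels were compared as log2 differences (ALDH high minus control), with the 2-fold threshold of the series description, and with 1.5-fold beside it. No test was possible. The members and lists were chosen with earlier results of these data known. Values are given for members over 1.5-fold, for the 2 largest differences and 2 highest levels of each role, for members with a probe set over 2-fold, and in other lists for genes over 2-fold and the 2 largest differences. Further genes were named after their values were seen. The gene choice and threshold were run on simulated arrays, where every probe set of a gene received the same effect and independent noise. That noise does not stand for the spread between cultures or sorts, so the run does not show how reliable the calls are here. Alternatives were the mean or median of a gene's probe sets, leaving out _s_at and _x_at probe sets, a filter at the median level, a pseudocount of 32 and lowess centring (fraction 0.3), with Python 3.11.15, pandas 2.3.3 and statsmodels 0.14.6.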

Additional observations from a re-analysis of the deposited data

How the results depend on the processing

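No paired analysis was possible because each group had 1 array. A shift of the median was called a move where it exceeded the 0.23 SD between probe sets of a gene. The median of the 48 Wnt genes stayed between -0.03 and 0.00 under all 6 alternatives, and 0 members were over 2-fold lower under each. The count of 1 member over 2-fold higher became 2 as the mean or median of a gene's probe sets, where LGR5 (1.03) joined WNT5A, and 0 with a pseudocount or with lowess centring, where WNT5A stood at 0.96 and 0.996. At over 1.5-fold the counts were 5 higher and 1 lower of 48, beside 2.61% and 4.21% of all genes. At the same size 3 of the 54 other pathway genes were higher and 4 lower, beside the same shares of all genes. Over 2-fold, 0 of these pathway genes were higher as the mean or median of probe sets or with a pseudocount (APCDD1 at 0.76, 0.76 and 0.98). Under the same settings 1 was over 2-fold lower, which was WIF1, while KREMEN1 (-0.32, -0.08 and -0.69) no longer was. Of the targets, 1 was higher under these settings, which was LGR5 as the mean or median and CD44 (1.10) with a pseudocount. Without probe sets open to cross-hybridisation, 3 were higher, BIRC5 (1.18) being the third, and 0 were lower (VEGFA has no other kind). At over 1.5-fold on the main probe sets, 5 of the 28 targets were higher and 4 lower, beside 2.61% and 4.21% of all genes. The 5 include LEF1 and LGR5, which are also among the 48. WIF1 lay between -2.19 and -2.12 throughout. The median of the secreted inhibitors was -0.40 over the 2 members at or above the median level, and that of the transcription factors was -0.52 without probe sets open to cross-hybridisation, where TCF7L2 alone was left. Of 206 values for 36 named genes, 35 moved by more than this SD and 0 of those over 2-fold reversed. AXIN2, at 0.53, was -0.11 as the median of its probe sets.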
